A study of Mus musculus with 96 samples.

Results

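The cytosolic ribosomal protein genes were taken from a table of counts over 55487 genes as the rows whose symbol is Rpl or Rps followed by a digit, or is Rplp0, Rplp1, Rplp2 or Rpsa. Symbols with -ps or -rs, which mark pseudogenes and related sequences, and the Rps6k kinases were left out, which gave 94 members. Of these, 77 encode proteins of the 2 ribosomal subunits, 46 of the large and 31 of the small subunit, and are called core genes here. Another 8 are paralogs with a symbol of their own (Rpl3l, Rpl7l1, Rpl10l, Rpl22l1, Rpl36al, Rpl39l, Rps4l and Rps27l), 8 are copies named after a core gene (Rpl6l, Rpl32l, Rpl37rt, Rps3a2, Rps3a3, Rps12l1, Rps23rg1 and Rps27rt), and Rps19bp1 encodes a protein that binds a ribosomal protein and is not a part of the ribosome. The symbols had to be read with care, since they include Rpl7l1, which encodes a factor of large-subunit assembly. The core genes lie on 19 chromosomes, with 14 of them on chromosome 7.

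A ribosome is built from ribosomal RNA and one copy of nearly every ribosomal protein, so that a cell needs these proteins in near-equal amounts. Their mRNAs are among the most abundant of a growing cell. Most begin with a C followed by an unbroken run of pyrimidines, the 5′ terminal oligopyrimidine (TOP) motif, through which the kinase mTOR and the RNA-binding protein LARP1 set how strongly they are translated. In stem cells that leave quiescence, ribosome production rises with growth and division. Fau encodes a small-subunit protein fused to a ubiquitin-like protein and falls outside the rule by its name.

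The cells were wild type horizontal basal cells (HBCs), the reserve stem cells of the mouse olfactory epithelium (OE). They were cultured from the OE of mice 6 to 8 weeks old, 2 days after methimazole (MMZ), which destroys most other OE cells. Both daughter cells were picked after each of 48 divisions, so that 96 cells form 48 sister pairs of 1 group, and the polyadenylated RNA of each was captured, amplified and sequenced by G&T-seq, with a fixed amount of synthetic ERCC transcripts added. The labels name neither the mouse nor the culture of a cell, so the cells are 1 sample without replicates, no test was made, and every value describes these cells.

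The reads assigned to genes numbered 29454150 in the least and 44849003 in the most deeply sequenced cell (median 36152760), and 12 sets of 8 cells could be read from the names of the deposited data. Trp63, Krt5 and Krt14, which mark HBCs, had 10 or more counts in all 96 cells. Of 21 markers of other cell types, 19 had a median count of 0. The summed share of the 21 ranged from 5.4e-06% to 0.0287% of gene counts. Exceptions were Cd68, with 10 or more counts in 57 cells, and Pecam1, which was counted in 92 cells but reached 10 counts in 5.

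The pair numbered 4 stood apart. Its daughter cell 2 had the lowest Krt5 count, 6760 against a median of 106400, and the lowest Krt14 count, 691 against a median of 135243. Its sister had 110746 and 137110. Daughter cell 2 also had the highest mitochondrial share of all cells, 3.84%, and 11654 genes counted against a median of 12865.5. In its sister these were 2% and 12291. Mki67, a marker of dividing cells, had 127 and 120 counts in the pair against a median of 16647.5. Because this pair also had the lowest values of most core genes, the main results are given with and without it. The pair numbered 46, in which 1 daughter cell had the lowest Trp63 count (37), was left out as a second check.

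RefSeq lists an annotated start (GRCm38.p6) for 69 of the 94 members. To show the TOP motif, 30 bases round the start are printed for 13 core genes, with 10 bases before it and on the strand of the gene, and capitals mark the C and the run of pyrimidines after it. In these genes the C is the start base itself.
Rps6: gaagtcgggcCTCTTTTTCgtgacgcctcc
Rps10: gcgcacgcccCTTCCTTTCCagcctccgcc
Rps15a: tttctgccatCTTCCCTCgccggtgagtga
Rps18: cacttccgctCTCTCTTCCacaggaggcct
Rps21: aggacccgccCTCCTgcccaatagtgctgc
Rps27: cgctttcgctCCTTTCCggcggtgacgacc
Rpl14: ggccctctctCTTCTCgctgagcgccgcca
Rpl15: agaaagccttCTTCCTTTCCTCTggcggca
Rpl28: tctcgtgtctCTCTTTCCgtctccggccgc
Rpl35: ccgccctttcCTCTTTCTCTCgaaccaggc
Rpl35a: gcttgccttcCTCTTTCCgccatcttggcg
Rpl38: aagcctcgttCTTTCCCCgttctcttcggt
Rplp2: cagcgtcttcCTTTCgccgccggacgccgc

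These 13 were 22.8% of the 57 core genes with a start, for which a C with 4 or more C or T after it was required at the start base. With the copies Rpl32l and Rps27rt the count was 15 of 69 members (21.7%), against 3.01% of all 27025 genes in the RefSeq table and 0 of 69 mitochondrial ribosomal protein genes. The annotated base matters, because a start set a few bases away hides the run. With the C anywhere within 10 bases of the start, 60.9% of the members and 34.4% of all genes had such a run. So did 44.9% of the mitochondrial ribosomal protein genes. Genes with several starts were counted once if any of them met the rule.

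The next windows show genes whose annotated start is not a C with such a run. Rps2 and Rplp0 were the most abundant members, Rpl13a has a long run beginning 2 bases after the start, and Rpl22l1, Rpl39l and Rpl7l1 are paralogs described further on. Where a run lies within 10 bases of the start, it is in capitals.
Rps2: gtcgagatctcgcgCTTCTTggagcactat
Rplp0: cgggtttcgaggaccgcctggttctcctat
Rpl13a: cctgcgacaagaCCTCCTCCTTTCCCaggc
Rpl22l1: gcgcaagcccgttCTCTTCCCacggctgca
Rpl39l: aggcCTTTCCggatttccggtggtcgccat
Rpl7l1: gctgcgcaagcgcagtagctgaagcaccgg

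The Rps6 window lies at chr4:86857348-86857377 on the minus strand and the Rps18 window at chr17:33955646-33955675 on the minus strand. The Rps2 window lies at chr17:24720053-24720082 on the plus strand and the Rplp0 window at chr5:115559457-115559486 on the plus strand. The Rpl39l window lies at chr16:10170218-10170247 on the plus strand. Each covers the last bases of the promoter and the first bases of the 5′ UTR as annotated. Among core genes, the 34 with a run within 10 bases of the start had a median correlation with the other members of 0.48, and the 23 without had 0.49, and their ranges overlapped.

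Every core gene was counted in every cell. In all, 88 of 94 members had a count in all 96 cells, or 97.8% of the 90 members that passed a filter of 10 counts in at least 10% of cells, while 31.8% of the 14463 genes that passed it did. The 6 members not counted in all cells were Rps23rg1, a retrogene of the Rps23 family counted in 71 cells, Rps4l in 68, Rpl39l in 17, the copy Rps12l1 in 2, and Rpl3l and Rpl10l in none. Rpl3l is known from muscle and Rpl10l from testis. Each was at 0 in all 48 pairs. If pairs are taken as independent, this allows up to 6.25% of pairs with a count, as an approximate limit of 3 in 48. That limit covers neither mice nor cultures.

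Levels were compared between genes as TPM, a value per length of the transcript. The median TPM of the core genes ranged from 114 to 6473, a 56.9-fold range, with a median over genes of 1189. For comparison, the 14463 genes had a median of 7.12, and 45 of the 140 genes at a median of 1000 TPM or more were core genes.

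Rps2 (ENSMUSG00000044533), a small-subunit protein near the mRNA entry channel, was the highest. Its TPM was 914 in the lowest cell, 6473 in the median cell and 9080 in the highest. Rplp0, the base of the large-subunit stalk that recruits elongation factors, followed with 2497, 4515 and 6299 TPM. Rpl13 had 1571, 3283 and 4679 TPM. Rps14, at the platform of the small subunit, had 1389, 2819 and 4126 TPM. Rplp1, which binds to Rplp0 in the stalk, had 641, 2798 and 4431 TPM. The ranges over cells of these neighbours overlapped, and the medians of Rps2 and Rplp0 stood above the highest cell of most core genes.

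**Figure D1:**
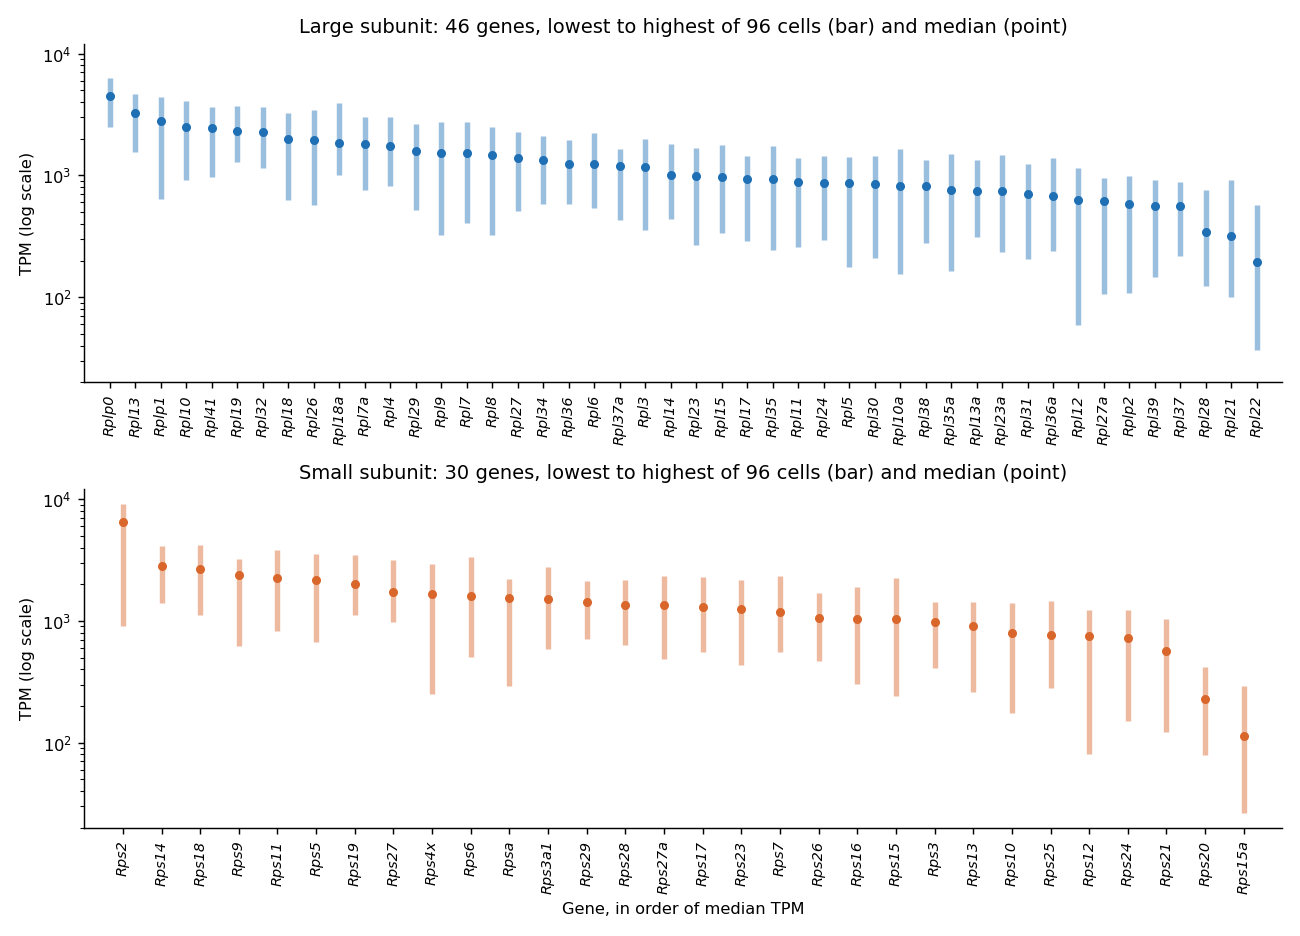
TPM (vertical axis, log scale) of the 46 large-subunit genes (top, blue) and 30 of the 31 small-subunit genes (bottom, orange), each bar running from the lowest to the highest of 96 cells with a point at the median. Rps2 and Rplp0 lead at medians of 6473 and 4515 TPM, and the bars of neighbouring genes overlap.

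At the low end of the core genes, Rps15a had 26.7, 114 and 292 TPM in the lowest, median and highest cell, Rpl22 had 36.8, 196 and 574 TPM, and Rps20 had 79.7, 229 and 416 TPM. Rps15a and Rps20 were not low in counts, with medians of 11926 and 17333.5 reads. Their counts as CPM (scaled to the library) were 2.87 and 2.05 times their TPM, against a median of 0.496 over core genes. Their principal transcripts in GENCODE M21 are 5130 and 3706 bases long, and a level per length falls with the length assigned. Rpl22, an RNA-binding protein at the surface of the large subunit, was low in counts too, with a median of 3133.5. CPM per kb of the principal transcript gave an order close to that by TPM (Spearman 0.94 over 77 genes) and again had Rps2, Rplp0 and Rpl13 at the top.

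The lowest 5 members among those counted in all cells were all copies. They were Rps3a3 at a median of 5.05 TPM, Rpl32l at 9.51, Rpl6l at 20.9, Rpl37rt at 30.5 and Rps27rt at 55.4. They are described with their parent genes further on.

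Together the 94 members took 5.72% ± 1.06 of the gene counts of a cell (mean ± SD over 96 cells of 1 group). The share was 2.44% in the lowest cell, 5.74% in the median and 9.15% in the highest, a 3.76-fold range that was 2.53-fold without pair 4. The lowest were both daughter cells of pair 4, at 2.98% and 2.44%, followed by those of pair 19, at 3.62% and 4.09% with daughter cell 2 of pair 12 at 4.01% between them. The highest was daughter cell 1 of pair 42, at 9.15%, whose sister had 7.61%. Next was daughter cell 1 of pair 45, at 8.66%, with its sister at 6.73%. Both daughter cells of pair 31 were at 8.28% and 7.9%, while in pair 32 daughter cell 1 had 7.91% and its sister 5.94%. An extreme value was therefore shared by the sister in some pairs and not in others. The sisters of pair 3 lay farthest apart, at a ratio of 1.47.

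**Figure D2:**
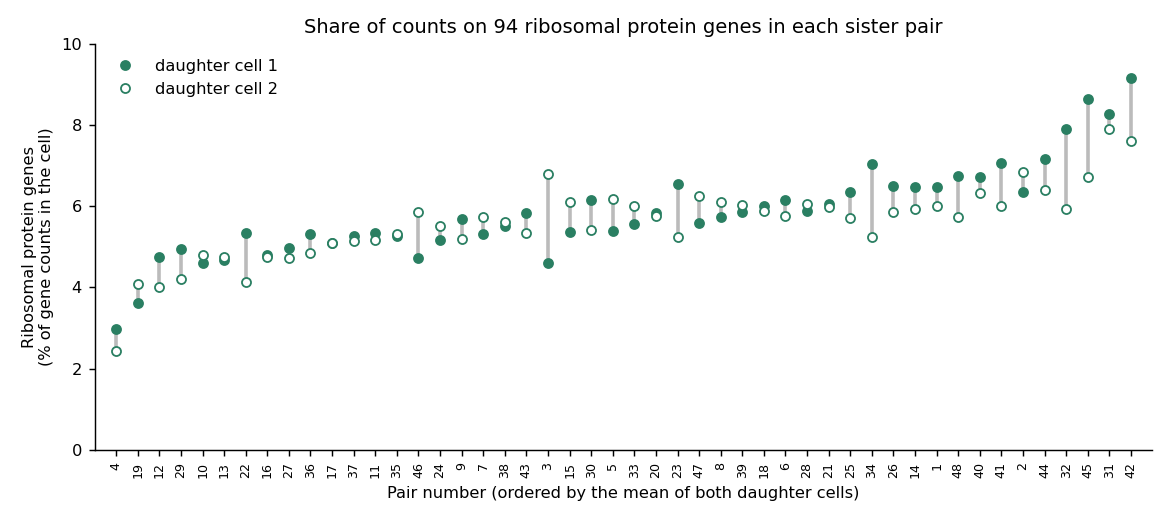
Percent of gene counts on the 94 ribosomal protein genes (vertical axis) in daughter cell 1 (filled) and daughter cell 2 (open) of the 48 pairs (horizontal axis, ordered by pair mean), with a grey line joining sisters. Pair 4 sits lowest at 2.98% and 2.44%, pair 42 highest at 9.15% and 7.61%, and the median ratio between sisters is 1.09.

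The intraclass correlation of sisters in the log2 share (1 where sisters are identical, about 0 where they are no more alike than any cells) was 0.75. Without pair 4 it was 0.654. The 12 sets had means between 4.94% and 6.82% and held 21.8% of the variance. Sets of this size made of unrelated cells would hold about 11.6%. However, each set is made of whole pairs, and the pairs held 87.3% of the variance. The 11.6% is therefore too low a reference, and no difference between sets can be read from it. After each set was centred, the intraclass correlation was 0.681. Whether a set was handled together is not stated, and its part in the result was not tested.

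Over the 96 cells, the share had a Spearman correlation of -0.19 with the summed counts of all genes on the spike-in scale. It was -0.21 with the number of genes counted and 0.07 with the mitochondrial share. The libraries' own gene counts gave -0.13 over cells but -0.36 over the 48 differences between sisters. These points share their library and its depth.

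On the spike-in scale, where counts are divided by a size factor from ERCC transcripts, the summed members ranged 8.9-fold over cells, and 6.58-fold without pair 4. The higher sister had a median of 1.12 times the lower, and 4 of 48 pairs reached 1.5 (8.33%, exact 95% interval 2.32% to 20.0%). The interval takes pairs as independent draws and covers neither mice nor cultures, which the labels do not name. The study used the cutoff of 1.5 for protein levels between sister chromatids and for single transcripts such as Trp63 between daughter cells. It called pairs asymmetric by the clusters of the cells, and also by single transcripts, those of Trp63 and of H3f3a or H3f3b. A ratio of summed genes is unlike each of these measures. The 4 were the pairs numbered 4, 23, 47 and 3, at 2.07, 1.97, 1.96 and 1.93, which leaves 3 without pair 4. The summed counts of all genes had a median ratio of 1.15 and 3 such pairs. As a share of the gene counts the members differed less between sisters, with a median ratio of 1.09 and a highest of 1.47. By share, 0 of 48 pairs were at 1.5 (exact 95% interval 0% to 7.4%, with pairs again taken as independent). Ratios on the spike-in scale carry the error of the size factor as well as the amount of RNA, and these cannot be told apart.

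Large- and small-subunit genes kept close to 1 proportion. The 46 large-subunit genes had 1.32 ± 0.0693 (SD over 96 cells) times the counts of the 31 small-subunit genes, and the log2 ratio ran from 0.25 to 0.67. Sisters differed by a mean of 0.06 on the log2 scale, and the SD over cells was 0.07. A difference between 2 cells and an SD are unlike measures, so these values do not tell how alike sisters were. The shares of the 2 subunits had a Spearman correlation of 0.95 over cells. The highest log2 ratios, 0.67 and 0.65, were in daughter cell 2 of pair 8 and daughter cell 2 of pair 4.

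Single members varied little from cell to cell. On the spike-in scale, the SD over cells of log2(value + 1) had a median of 0.57 over the 90 members and 2.73 over 14463 genes. On the CPM scale it was 0.41 and 1.58. Well-counted genes vary less, so the comparison was repeated with genes that had 10 or more counts in all 96 cells. Here the medians on the CPM scale were 0.41 for 87 members, 0.85 for 3286 genes and 0.85 for 45 mitochondrial ribosomal protein genes. Members are far more abundant than most genes, and the medians were not matched for level.

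Rplp0 had the smallest SD on the CPM scale, 0.26, with 71391, 130456 and 199959 counts in the lowest, median and highest cell. It was followed by Rps23rg1 (0.28), whose counts of 0 to 44 leave little room on this scale, Rpl41 (0.3), Rpl15 (0.31) and Rps28 (0.31). Rpl41 encodes the smallest ribosomal protein. The largest SDs were those of Rps4l (2.73), Rps19bp1 (1.21), Rpl7l1 (0.8) and Rpl22l1 (0.72), none of them a core gene. Rps19bp1, which encodes a nucleolar partner of Rps19 and activator of Sirt1, had 5, 1308.5 and 3101 counts in the lowest, median and highest cell.

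For 61 of the 77 core genes the lowest CPM of all cells was in pair 4, 43 in daughter cell 2 and 18 in daughter cell 1. Rps2 had 23902 counts in daughter cell 2 and 105582 in daughter cell 1 of this pair, against a median of 144753. Rps6, whose protein is phosphorylated by S6 kinases, had 11245 and 24754 against a median of 30837. The highest CPM of 28 core genes was in daughter cell 1 of pair 42 and of 4 more in its sister, and 14 cells shared the highest values of all core genes. The same counts over all genes are not given, so those of pairs 4 and 42 do not set core genes apart. Core genes also rose and fell together over cells, so they are not separate observations.

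A sister ratio of 1.5 on the spike-in scale was reached in a median of 11.5 of 48 pairs (24%) per member and of 33 pairs (68.8%) per gene over all 14463. As few as 7 of 90 members (7.78%) reached it in 24 or more pairs, while 79.5% of all genes did. Among genes with 10 or more counts in all cells the shares were 4.6% of members and 62% of genes. The members with the most such pairs were Rps23rg1 (41 pairs), Rps4l (35), Rps19bp1 (29), Rpl7l1 (28) and the core gene Rpl21 (25), followed by Rpl22 and Rps3a3 at 24 each. Rps2 had the fewest, 5. Rplp0, Rps9, Rps19, Rps23, Rps27a and Rps28 had 6 each. On the CPM scale the median was 6 pairs per member and 29 per gene. Rps23rg1 and Rps4l had a median of 5 counts each, so that many of their ratios come from counts near 0. On the CPM scale they reached 1.5 in 9 and 19 pairs.

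Sisters were more alike in these genes than in most. The median intraclass correlation of log2(CPM + 1) over pairs was 0.524 for the 90 members and 0.111 for 14463 genes. It reached 0.5 in 53 members (58.9%) and in 4.4% of all genes. Among genes with 10 or more counts in all cells it did so in 59.8% of members and 10.9% of genes. Members are more abundant than most genes, and these comparisons were not matched for level. The members also rose and fell together over cells, so their values are not separate observations. Of the core genes, 31 of 46 large- and 19 of 31 small-subunit genes reached 0.5. Much of this count rested on 1 pair. Without pair 4, 26 members (28.9%) and 4.07% of all genes reached 0.5, with medians of 0.424 and 0.107. With size factors from all genes by the median of ratios, the count was also 26, and 3.91% of all genes. On the spike-in scale it was 66, and 6.9% of all genes.

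Rps18, a protein of the small-subunit head, had the highest intraclass correlation, 0.762. Its counts were 15198, 34867.5 and 54238 in the lowest, median and highest cell. Next were Rpl5 (0.702) and Rpl11 (0.686), which with the 5S ribosomal RNA form the particle that can bind Mdm2, together with Rpl32 (0.692) and Rps9 (0.683). The lowest values were -0.0679 for Rps23rg1, 0.0818 for Rps19bp1, 0.173 for Rpl7l1, 0.178 for the copy Rpl37rt and 0.19 for Rps10, a core gene of the small subunit. Rps10 and Rps18 had a similar SD over cells, 0.41 and 0.39, so that they differed in how sisters resembled each other rather than in their spread.

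**Figure D3:**
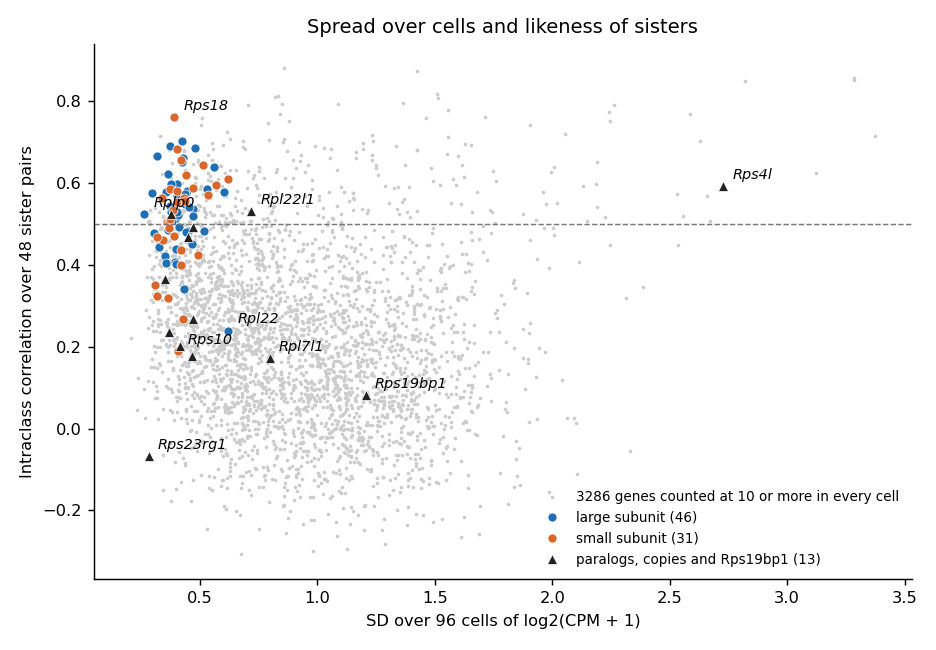
Intraclass correlation of sisters over 48 pairs (vertical axis, dashed line at 0.5) against the SD over 96 cells of log2(CPM + 1) (horizontal axis) for the 90 members that passed the filter, in blue (large subunit), orange (small subunit) and black triangles (other members), on 3286 well-counted genes in grey. Core genes gather at small SDs, and Rps4l, Rps19bp1, Rpl7l1 and Rpl22l1 lie to their right.

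The members rose and fell together over cells. All 4005 combinations of 2 of the 90 members were compared by Spearman correlation. On the CPM scale the median over 96 cells was 0.46, with 99% of combinations above 0, while the median over all 14463 genes was 0.01. For the 77 core genes it was 0.49. It was 0.5 within the large subunit, 0.48 within the small and 0.49 between them, so that the subunits did not form separate blocks. The 78 mitochondrial ribosomal protein genes, which are less abundant, had a median of 0.07 among themselves. Without pair 4 the median over members was 0.43.

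Over the 48 differences between sisters the median was 0.25 for members (0.26 without pair 4) and under 0.01 for all genes (0.0025), and 93.1% of combinations were above 0. On the spike-in scale the medians were 0.73 over cells and 0.52 over sister differences, against 0.09 and 0.03 for all genes, where the values of a cell share 1 size factor. Cells within a pair are not independent, and the points share library and depth.

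Measured by its median correlation with the other members over cells, 84 of the 90 members (93.3%) stood at 0.3 or more, and 2.72% of all genes did. Without pair 4 these were 83 members and 2.07% of all genes. The highest were Rps3a1 (0.58), Rpl7a (0.57), Rpl13 (0.57), Rps6 (0.57) and Rps14 (0.56). The 6 below 0.3 were Rps4l (0.05), Rps23rg1 (0.12), Rps19bp1 (0.15), Rpl7l1 (0.19), Rpsa (0.22) and Rps27l (0.29). Rpsa, a small-subunit protein that is also a laminin receptor, was the only core gene among them. It was abundant, with 290, 1548 and 2215 TPM in the lowest, median and highest cell. Over sister differences 22 members (24.4%) reached 0.3, and 0.256% of all genes did.

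Some paralogs were at a level like that of their partner, Rpl7l1 was counted in all cells but below Rpl7, Rpl3l and Rpl10l were not counted, and Rps4l and Rpl39l were high in some cells and near 0 in others. Of the first kind, Rpl22l1 took 60.1% ± 11.7 (SD over 96 cells) of the counts of Rpl22 and Rpl22l1 together, from 37.5% in the lowest cell to 93.3% in the highest, and exceeded Rpl22 in 76 cells. Sisters resembled each other in this proportion (intraclass correlation of the log2 ratio 0.545) about as much as in Rpl22l1 itself (0.53), while the value for Rpl22 was 0.24. Both genes had a correlation of 0.27 over cells in CPM. Rpl36al took 60.8% ± 7.23 with Rpl36a and exceeded it in 90 cells. Rps27l, a target of p53, took 40.7% ± 7.65 with Rps27 and exceeded it in 10 cells. Shares from TPM were 65.4%, 59.8% and 33.1%.

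Rpl7l1 had 246, 5690 and 16656 counts in the lowest, median and highest cell. It took 13.7% ± 5.21 of the counts with Rpl7 but 6.85% ± 2.77 of the TPM, and the principal transcript in GENCODE M21 is 1958 bases long. It differed by 1.5 or more between the sisters of 28 pairs on the spike-in scale, against at most 25 pairs for any core gene.

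Rps4l, annotated in GENCODE M21 as a transcribed processed pseudogene on chromosome 6 (148354656 to 148355598, plus strand), was all or little. In 33 cells it had between 164 and 11534 counts, with a median of 1378. In the other 63 cells it had at most 21, with 28 cells at 0. It was at 100 counts or more, a line drawn after its values were seen, in both sisters of 12 pairs, in 1 sister of 9 pairs and in neither of 27. Of the 92 genes that reached 100 counts in exactly 33 cells, 3.26% did so in both sisters of 12 or more pairs, and the median was 7 pairs. The limits of 33 cells and 12 pairs are those of Rps4l itself, which is among these genes. The 33 cells came from all 12 sets. Its sequence shares no stretch of 50 bases with Rps4x, its X-linked relative, and the correlation with Rps4x over cells was -0.11. In the highest cell, daughter cell 2 of pair 47, it made up 27% of the counts of both. Its sister had 181 counts.

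Rpl39l (ENSMUSG00000039209), a paralog known from male germ cells, on chromosome 16 (10170226 to 10174911, plus strand), was high in 4 cells and these were 2 sister pairs. Pair 27 had 4486 and 3654 counts and pair 37 had 4301 and 5506, or 216 to 298 TPM. The other 92 cells had at most 9 counts, with 79 at 0. Rpl39, the ubiquitous gene, had 8208 and 7552 counts in pair 27 and 8746 and 10034 in pair 37, against a median of 7462 and a range of 2024 to 13104 over all cells. Rpl39l thus made up as much as 35.4% of the counts of both. Among 599 genes with 100 counts or more in exactly 4 cells, 4 genes (0.668%) had them in 2 whole pairs. This pattern was taken from Rpl39l, which is 1 of the 4, so that the share describes how common it was and does not test it. No other gene was at 100 counts or more in these 4 cells and in 2 or fewer others. The pairs came from sets 7 and 10.

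**Figure D4:**
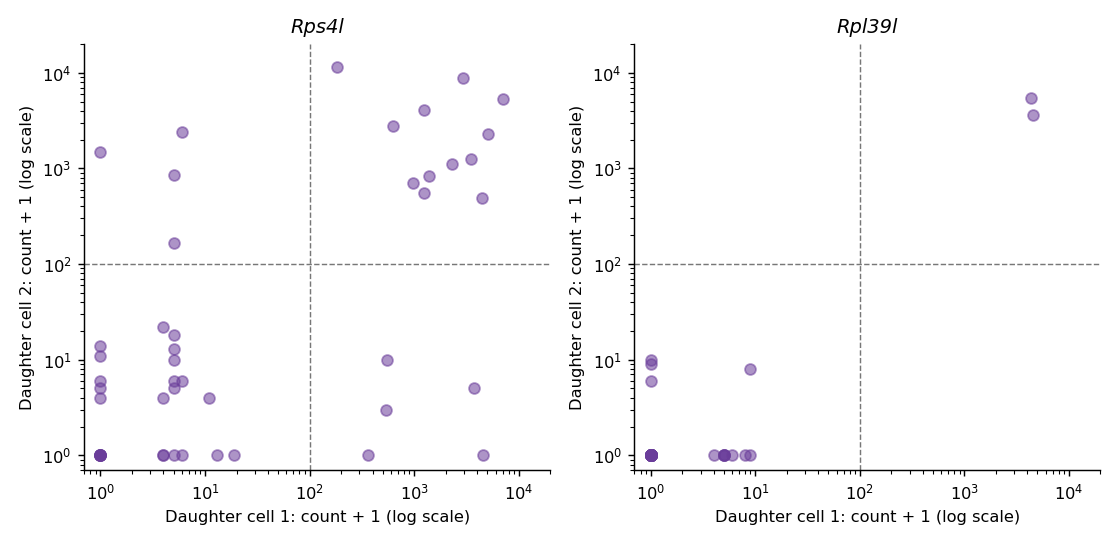
Counts plus 1 in daughter cell 1 (horizontal axis, log scale) and daughter cell 2 (vertical axis, log scale) for Rps4l (left) and Rpl39l (right), each point 1 of 48 pairs, with dashed lines at 100 counts. Rps4l is above the line in both sisters of 12 pairs and in 1 sister of 9, and Rpl39l in both sisters of 2 pairs and in no single sister.

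Of the 8 copies, 6 moved with their parent genes over cells. Rps27rt had 3.1% ± 0.492 (SD over 96 cells) of the counts of Rps27 and Rps27rt together, Rps3a2 had 3.04% ± 0.449 with Rps3a1, Rpl37rt 2.35% ± 0.986 with Rpl37, Rpl6l 1.19% ± 0.234 with Rpl6, Rpl32l 0.345% ± 0.198 with Rpl32, and Rps3a3 0.283% ± 0.12 with Rps3a1. The CPM of these 6 had correlations with those of the parents of 0.51 to 0.86. Between 19.4% and 91.1% of their 50-base stretches occur in the transcripts of the parent, so that reads of the parent could be assigned to them, and the counting cannot tell the 2 sources apart. Rps12l1, all of whose stretches lie in Rps12, had 3 counts at most, while Rps23rg1, which shares none with Rps23, had 44 at most. Their correlations with the parents were 0.11 and 0.07.

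The 319 rows left out for -ps or -rs in the symbol held 2.44% ± 0.142 of the count of the members, and 131 of them were counted in all cells. Their transcripts share a median of 18.7% of their 50-base stretches with core genes. Adding them raised the share of the members from 5.72% to 5.86% of gene counts.

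Outside the members, the genes most like them over cells were again of their own sequence. The highest median correlations with the members were those of Rps6-ps4 (0.57), Gm12918 (0.56), Gm11518 (0.52) and Rpl15-ps6 (0.51), all processed pseudogenes. All 50-base stretches of the first 3 occur in core genes, most often in Rps6, Rpl13 and Rpl27, and so do 82.9% of those of the last, most often in Rpl15. Of the 50 highest genes, 35 are annotated as pseudogenes and 36 share sequence with core genes. The fifth was Ran (0.5), the GTPase of nuclear transport, with 128, 609 and 1244 TPM in the lowest, median and highest cell.

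Among other protein-coding genes without such sequence, Npm1 and Eef1b2 followed at 0.5 each. At the other end stood Ctsd (-0.41), a lysosomal protease, Capg (-0.38), an actin-capping protein, Rnh1 (-0.35), the ribonuclease inhibitor, Mapk11 (-0.32) and Rab11fip1 (-0.31). Ctsd had 263, 1238 and 3551 TPM in the lowest, median and highest cell, and its highest count of all cells, 194908, was in daughter cell 1 of pair 4. Over sister differences the values were -0.2 for Ctsd and 0.25 for Ran.

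Fau and Rack1 are parts of the ribosome that the rule does not take. Fau had 693, 1080 and 1979 TPM in the lowest, median and highest cell, and Rack1, a scaffold on the small-subunit head, had 377, 1064 and 1997. Their median correlations with the members were 0.4 and 0.37.

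Lists of related genes were compared as the Spearman correlation between the mean log2(CPM + 1) of a list and the share of the members, over 96 cells and then over 48 sister differences. The 20 translation factors came highest of these lists, at 0.69 and 0.5. Eef1b2, a subunit of the elongation factor that recharges eEF1A, and Btf3, of the nascent chain complex, led them, with median correlations with the members of 0.5 and 0.43. The values of single genes are medians of correlations with single members, so they cannot be set against that of the list mean. On this measure core genes had a median of 0.49 among themselves. Of the 20 translation factors, 4 had a median correlation of 0.3 or more, and 1 was below 0. The share of all genes above 0 on this measure is not given. Counts by sign in this list and the later ones therefore have no reference.

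The 40 ribosome biogenesis genes, which serve assembly in the nucleolus, had 0.31 and 0.28. Npm1, a nucleolar chaperone, and Ncl led with 0.5 and 0.44. Npm1 had 152, 1178 and 2442 TPM in the lowest, median and highest cell. Of the 40, 36 had a median correlation with the members above 0 and 6 reached 0.3. The 78 mitochondrial ribosomal protein genes had 0.49 and 0.48. On the measure for single genes 1 of them, Mrps22, reached 0.3, beside Mrpl47 at 0.26. The mean of many genes carries less noise than a mean of few, so that lists of unlike size are not comparable in this.

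Nuclear genes of oxidative phosphorylation (77 measured) had 0.39 and 0.4, with Ndufb6 (0.32) and Cox4i1 (0.3) at the top, and proteasome genes (37) had 0.29 and 0.15, with Psma3 (0.34) and Psma6 (0.29). When the 12 sets were centred, the correlation over cells was 0.38 for mitochondrial ribosomal protein genes and 0.23 for oxidative phosphorylation.

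Lists of regulators and of cell states stood near 0 or below on the CPM scale, except G2 and mitosis genes at 0.15, and all were above 0 over cells on the spike-in scale. The 13 mTOR and TOP mRNA regulators had -0.09 and -0.09, led by Rheb (0.16), which activates mTOR, and Rps6kb1 (0.09). The 8 measured genes of the Myc network had -0.36 and -0.19, led by Max (0.11) and Myc (0.04), and on the spike-in scale the value over cells was 0.18. The median TPM over the genes of this list was 0.168, so that its mean rests in part on genes near 0. Max and Myc were the 2 with a median correlation above 0, and 6 were below. Myc had 0.399, 105 and 521 TPM in the lowest, median and highest cell.

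G2 and mitosis genes (19) had 0.15 and 0.09, led by Ccnb2 (0.19) and Hmmr (0.18). Of their medians 19 of 19 were above 0 and none was at 0.3, again without the share of all genes above 0. S phase genes (20) had 0.05 and -0.15, led by Slbp and Tyms (0.16 each). Wound keratins and squamous genes (12) had -0.09 and 0.08, led by Krt13 (0.07) and Sprr1b (0.05), both with a median TPM of 0. Basal cell genes (7) had 0.01 and -0.28, led by Krt15 and Itga6 (0.09 each). The median intraclass correlation of sisters was 0.581 over these 19 G2 and mitosis genes, beside 0.524 over the 90 members. Without pair 4 the medians were 0.556 and 0.424. The difference was not tested.

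**Figure D5:**
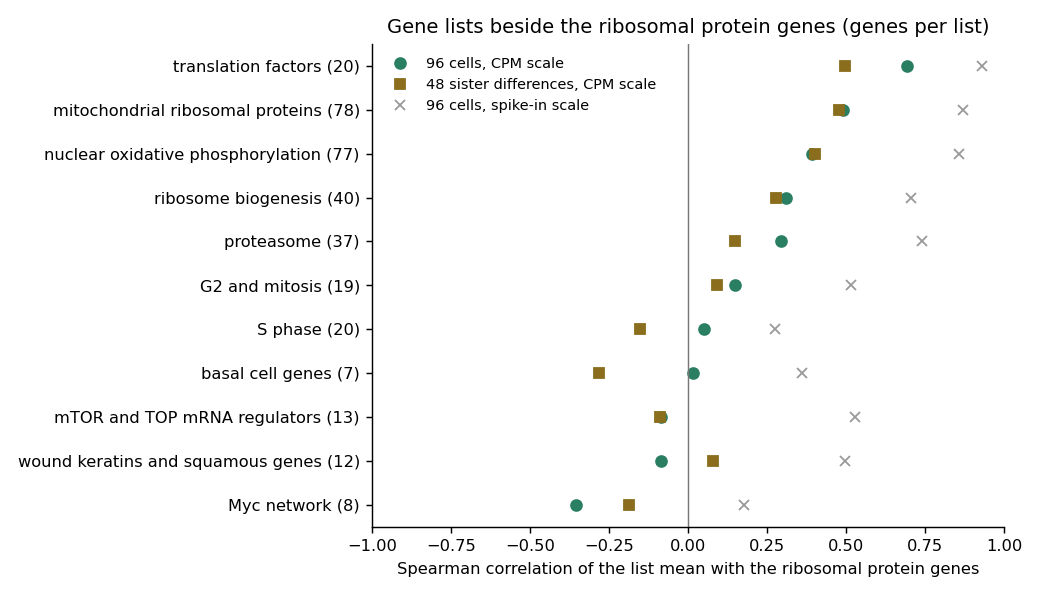
Spearman correlation (horizontal axis) of the mean of each gene list (vertical axis, with its number of genes) with the ribosomal protein genes, over 96 cells as a share of counts (green circles), over 48 sister differences (brown squares) and over 96 cells on the spike-in scale (grey crosses). On the CPM scale translation factors reach 0.69, G2 and mitosis genes 0.15 and the Myc network -0.36. The genes of the Myc network had a median of 0.168 TPM, near 0. On the spike-in scale all lists lie above 0.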

How the data were processed

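RNA of single daughter cells of cultured HBCs was sequenced with ERCC transcripts added. Per the labels and the study's methods, the authors trimmed reads with Trimmomatic 0.39, aligned them with STAR 2.7.11a to GRCm38 and deposited StringTie 2.2.1 counts per gene, without normalization, and TPM, which is scaled for length and library. No values of other samples were in the tables. Reads shared by near-identical genes can be split by the counting.

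Main values were counts divided by a median-of-ratios size factor over the 22 of 92 ERCC transcripts counted in all cells (0.378 to 1.89), or CPM of gene counts, with a pseudocount of 1 on the log2 scale. Intraclass correlations and correlations of genes used CPM. The number of reads counted on genes per cell limits the precision to counting error only where counts are low. Calculations used Python 3.11.15, numpy 2.4.6, scipy 1.17.1, pandas 2.3.3 and matplotlib 3.10.9, and were tested on simulated data.

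Members and gene lists were chosen with earlier results of these data known. Named were the 5 members highest and lowest in TPM, SD, pairs at a ratio of 1.5 and intraclass correlation, all paralogs and members missing from some cells, Rps6, Fau and Rack1, the 5 genes most and least like the members, and 2 genes per list. Some of these items, and 1 list, are not reported here. Other genes named, such as Rps20, Rpl22, Rpsa, Mki67 and Cd68, were chosen after their values were seen. Alternatives covered scaling, pseudocount, cutoff, filter, membership, TPM, pairs 46 and 4, and sets. Starts are from RefSeq (GRCm38.p6), and gene types, transcript lengths and sequences compared in 50-base stretches from GENCODE M21. Proteins were not used here.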

Additional observations from a re-analysis of the deposited data

How the results depend on the processing

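Of 250 recomputed values, 197 stayed within the limit set for each, 45 moved and 8, all of lists, moved and turned their sign. The cause was not tested. The limit was 1 SD over cells, pairs or members, 1.5 times for counts and 0.1 for a list's correlation. Such an SD is wide for a mean or median, so that staying within it does not show a stable value. Within it, the median pairs per member at 1.5 went from 11.5 to 5.5 with size factors from all genes. The median intraclass correlation of members went from 0.524 to 0.424 without pair 4. Leaving out pair 4 was chosen after seeing the data. It also turned the sign of 2 list correlations near 0, those of S phase (-0.013) and basal cell genes (-0.023) over cells. The share of the members was 11.8% in TPM. Summed members reached the sister ratio in 0 pairs by CPM, by median of ratios over genes and by TPM, and with the ratio at 2 in 1 pair and with a cutoff below 1.5 in 17 pairs. Leaving out each set gave 2 to 4 pairs, with 2 where set 1, which holds pairs 4 and 3, was left out. The median member reached a ratio of 2 in 3 pairs and the lower cutoff in 24.5. The correlation of members over cells was 0.73 with the spike-in size factor and 0.74 with the ERCC total, and over sister differences 0.52 for both. Rpl7l1 took 6.85% in TPM. Core genes ranged 90.6-fold per kb of transcript. A TOP-like run lay within 10 bases of the start in 60.9% of members.

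For the lists, values are given over cells and then over sister differences. On the spike-in scale they were 0.71 and 0.68 for ribosome biogenesis, 0.93 and 0.80 for translation factors, 0.87 and 0.78 for mitochondrial ribosomal proteins, 0.53 and 0.27 for mTOR and TOP regulators, 0.18 and -0.050 for the Myc network, 0.52 and 0.46 for G2 and mitosis, 0.27 and 0.19 for S phase, 0.36 and 0.26 for basal cell genes, 0.86 and 0.82 for oxidative phosphorylation and 0.74 and 0.69 for the proteasome, and 0.50 over cells for squamous genes. Here signs turned for mTOR and TOP regulators in both, for the Myc network and squamous genes over cells, and for S phase and basal cell genes over sister differences. S phase over sister differences also turned with Pearson and when centred. Pearson correlations that moved were, over cells, 0.52 for ribosome biogenesis, 0.25 for G2 and mitosis, 0.26 for S phase and 0.33 for basal cell genes, and over sister differences -0.32 for the Myc network, 0.095 for S phase and -0.13 for basal cell genes. Centred within sets, those that moved were, over cells, 0.38 for mitochondrial ribosomal proteins, 0.15 for S phase, 0.21 for basal cell genes and 0.23 for oxidative phosphorylation, and over sister differences -0.31 for the Myc network, 0.13 for S phase, -0.040 for basal cell genes, 0.30 for oxidative phosphorylation and 0.31 for the proteasome. Pair 46 moved none of the values from which it was left out. No paired analysis was possible because the study has 1 group, whose pairs enter as sisters throughout.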
